A study of Homo sapiens with 30 samples.

Results

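The genes described are 40 protein-coding genes of ribosome biogenesis and RNA polymerase I, taken as a set by their symbols. All 40 matched a row of the deposited table, out of 60675 gene rows in all, and they were sorted by role into 7 groups: 3 of the box C/D snoRNP, 4 of the box H/ACA snoRNP, 4 nucleolar scaffold proteins and chaperones, 6 t-UTP proteins of the small-subunit processome, 7 other small-subunit assembly factors, 9 large-subunit assembly factors, and 7 of RNA polymerase I and its initiation factors. RNA sequencing was done on HT29 cells, an established line from a human colorectal adenocarcinoma, exposed for 24 h to an extract made with 70% ethanol from a traditional herbal formula, or to vehicle. Each of 4 formulas was given at 20, 100 and 500 µg/mL by the labels: Soshiho-tang and Yijin-tang with 3 libraries per dose, Okbyeongpung-san with 2, and Soyo-san with 1, against 3 vehicle libraries. The vehicle was DMSO, at 0.1% by the labels but at 2% by the design text. The design text also allows lower doses for toxic extracts (an IC20-based scale), so the label doses may not be the doses used for every formula.

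Ribosomes are built in the nucleolus. RNA polymerase I copies the ribosomal DNA into a long precursor, small nucleolar ribonucleoproteins (snoRNPs) modify its bases and sugars, and processomes of many proteins fold and cut it into the RNAs of the small and the large subunit. In colorectal cancer cells this pathway is known as a growth-linked program with many promoters bound by the transcription factor MYC at the E-box CACGTG.

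Depth ranged over the 30 libraries between 18.5 M and 36.2 M counts (median 24.2 M). HT29 identity was checked on epithelial markers: EPCAM was present at 444 to 568 CPM (counts scaled to the same library total) and KRT8 at 5510 to 7400 CPM in all 30 libraries, whereas CDX2, CDH17 and GPA33 were low, at 1.47 to 4.84 CPM. The leukocyte marker PTPRC, the T cell marker CD3E, the fibroblast marker COL1A2, the endothelial marker CDH5 and the liver marker ALB were at 0 in between 20 and 29 of the 30 libraries, while COL1A1 and PECAM1 lay between 0.75 and 2.5 CPM. The mitochondrial share of counts was 9.06% to 10.8% in Soshiho-tang libraries at 500 µg/mL, 10.8% to 12.0% in those at 20 µg/mL and 11.5% to 13.9% in vehicle libraries, and its part in the results was not tested. Library names place the 3 vehicle libraries in a separate series, and the effect of that series and of the vehicle itself cannot be told apart. The chi-square statistic over genes, divided by its degrees of freedom, was 11.2 to 20.6 between pairs of vehicle libraries, against 2.41 to 5.96 for pairs of the same Soshiho-tang group and 2.68 to 7.02 for pairs of the same Yijin-tang group. In Okbyeongpung-san it was 2.49 at 20 µg/mL and 2.73 at 500 µg/mL, but 10.4 at 100 µg/mL, close to the vehicle pairs. Soyo-san and replicate 3 of Okbyeongpung-san belong to batch D and all other libraries to batch E, with no statement of what a batch is. The labels do not say whether replicates came from separate cultures, so p-values measure the spread between these libraries only. In a bulk sample, fewer cells of a kind and less RNA per cell cannot be told apart.

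Between 20 and 500 µg/mL most of the 40 genes had a positive log2 fold change in each formula (39 in Soshiho-tang, 38 in Yijin-tang, 39 in Okbyeongpung-san and 39 in Soyo-san), by small amounts. For each library the log2 CPM of each gene was set against its vehicle mean and the median over the 40 genes was taken. In Soshiho-tang this median was -0.02, -0.07 and -0.08 at 20 µg/mL, -0.02, 0.03 and -0.01 at 100 µg/mL, and 0.17, 0.15 and 0.12 at 500 µg/mL. In Yijin-tang it was -0.01, -0.06 and -0.09 at 20 µg/mL, -0.03, -0.07 and -0.05 at 100 µg/mL, and 0.04, 0.03 and 0.01 at 500 µg/mL. The libraries at 500 µg/mL lay above all libraries at 20 µg/mL of the same formula in both, whereas those at 100 µg/mL of Yijin-tang overlapped with those at 20 µg/mL. The vehicle libraries themselves spread from -0.10 in replicate 1 to 0.05 in replicate 2 and 0.08 in replicate 3, and the treated libraries outside that range were the 3 of Soshiho-tang, 1 of Okbyeongpung-san and that of Soyo-san, all at 500 µg/mL.

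**Figure D1:**
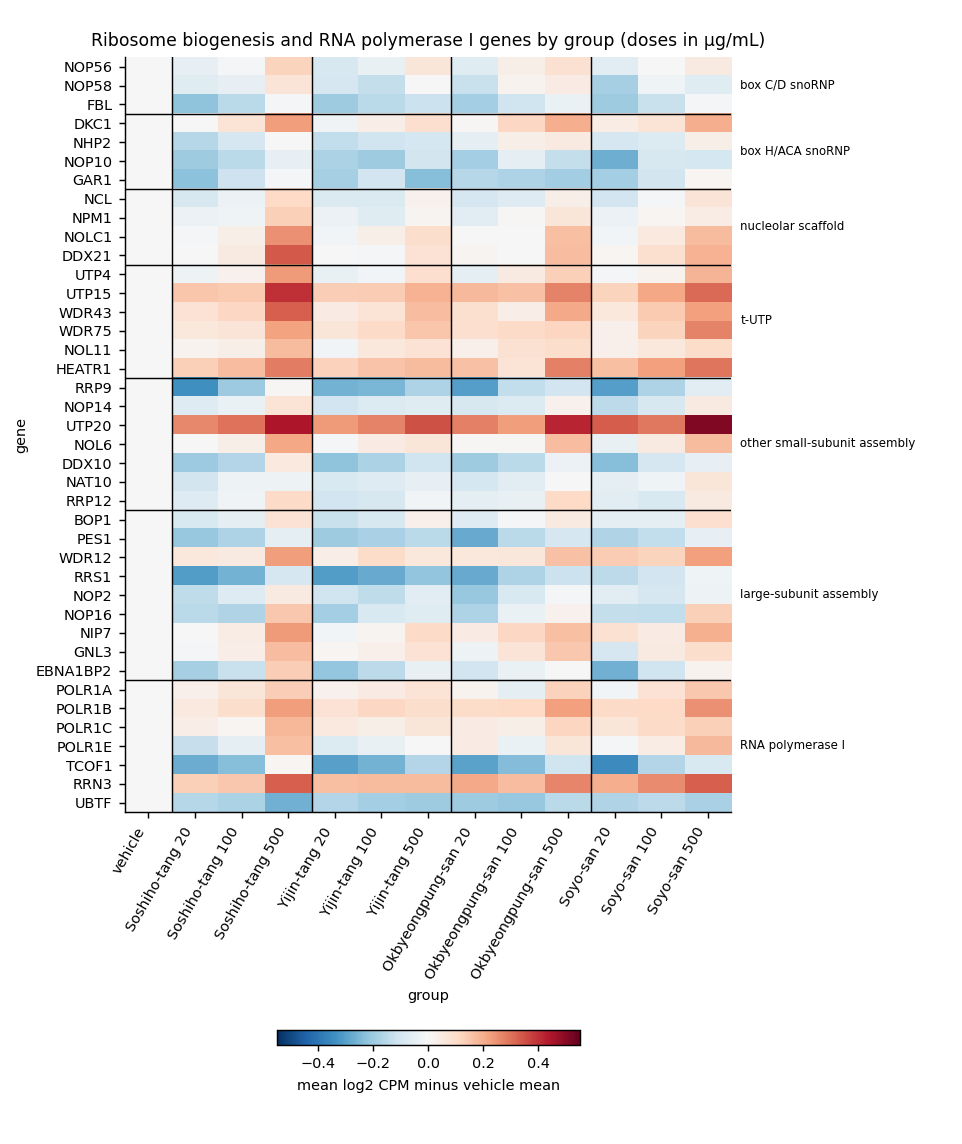
Colour map of the mean log2 CPM of each of the 40 genes (rows, in blocks by role) minus its vehicle mean, for vehicle and the 12 formula and dose groups (columns, doses in µg/mL). Most rows turn redder, or less blue, toward 500 µg/mL in each formula, with the exception of UBTF, which is blue in all treated groups, and a block of genes such as RRP9, RRS1 and TCOF1 is blue at 20 µg/mL in all 4 formulas.

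The clearest difference was between the high and the low dose of Soshiho-tang. At 500 against 20 µg/mL, 30 of the 40 genes were higher and 0 were lower by edgeR's quasi-likelihood test at an adjusted p below 0.05, against 13% of all 15895 genes tested that were higher and 13.6% that were lower. At unadjusted p below 0.05 there were 36 higher and 1 lower, and DESeq2 called 32 higher and 0 lower. The shares of all genes at unadjusted p and by DESeq2 are not given here, so these counts cannot be set against them. The median log2 fold change of the 40 genes was 0.18, a fold of 1.13, with a range from -0.11 to 0.34, beside a median of -0.01 over all genes. It was positive in 39 of the 40 genes and in 47.8% of all genes. The lower and upper quartiles of the 40 changes were 0.155 and 0.241.

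**Figure D2:**
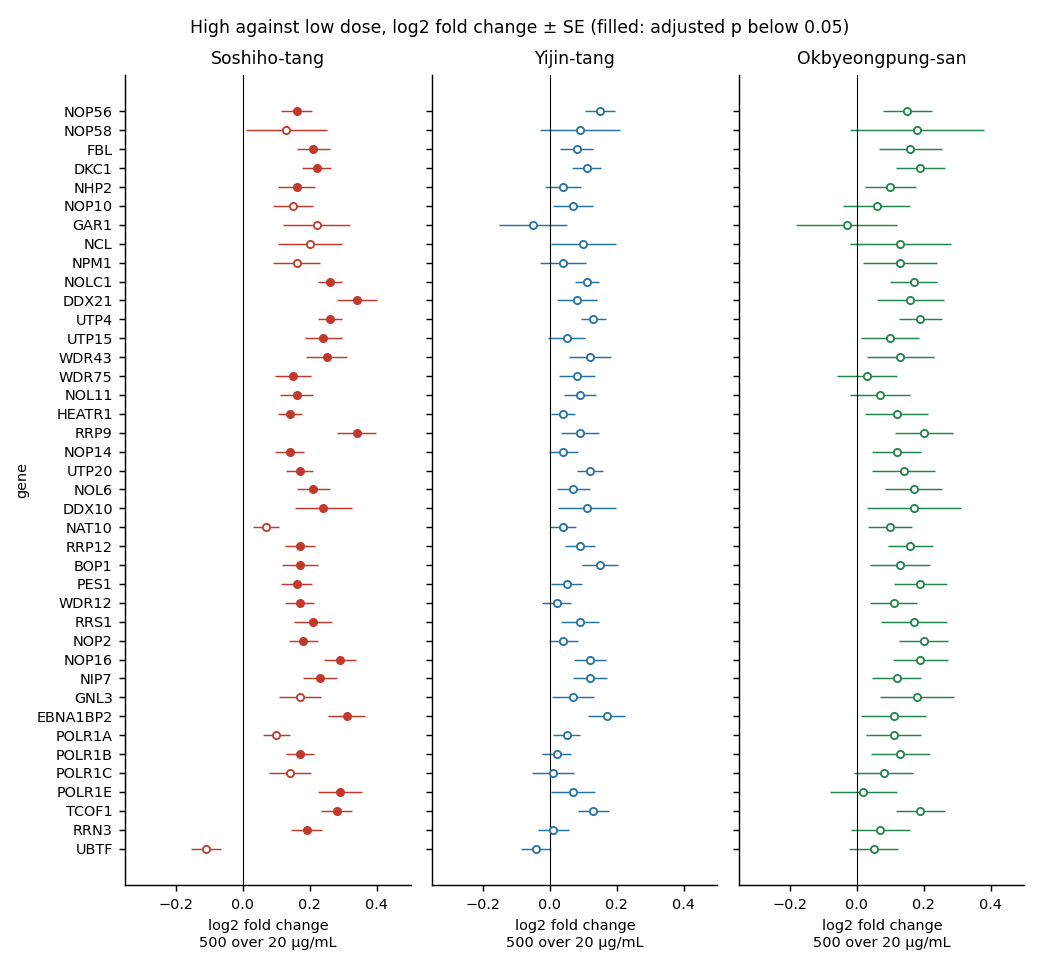
Log2 fold change of each of the 40 genes at 500 over 20 µg/mL, with its standard error, in Soshiho-tang, Yijin-tang and Okbyeongpung-san (filled points passed an adjusted p of 0.05, open points did not). All points but UBTF lie right of 0 in Soshiho-tang, where 30 are filled, and none is filled in the other 2 formulas.

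The box C/D snoRNP guides sugar methylation of ribosomal RNA. FBL, its methyltransferase, had 318, 383 and 400 CPM in vehicle libraries, 314, 311 and 314 CPM at 20 µg/mL, 327, 339 and 323 CPM at 100 µg/mL and 363, 369 and 355 CPM at 500 µg/mL of Soshiho-tang. The 3 libraries at 500 µg/mL lay above all at 20 µg/mL but within the vehicle range. At 500 against 20 µg/mL its log2 fold change was 0.21 ± 0.050 (SE; adjusted p = 0.0027). NOP56, a core scaffold of the particle, rose by 0.16 ± 0.045, and its partner NOP58 did not pass, at 0.13 ± 0.12.

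In the box H/ACA snoRNP, which converts uridine to pseudouridine, 2 of 4 genes rose. DKC1, the pseudouridine synthase, had 271, 296 and 302 CPM in vehicle libraries, 303, 276 and 290 CPM at 20 µg/mL, 305, 312 and 297 CPM at 100 µg/mL and 335, 350 and 333 CPM at 500 µg/mL of Soshiho-tang. Every library at 500 µg/mL was above every vehicle library and every library at the lower doses. DKC1 rose by 0.22 ± 0.044 at 500 against 20 µg/mL (adjusted p = 0.00034), and NHP2, a core protein of the particle, by 0.16 ± 0.054. GAR1, another core protein, had 21.9, 27.7 and 32.9 CPM in vehicle libraries, 23.5, 23.2 and 22.8 CPM at 20 µg/mL, 25.7, 26.4 and 23.3 CPM at 100 µg/mL and 28.5, 27.4 and 25.1 CPM at 500 µg/mL. Its libraries at 500 µg/mL were above those at 20 µg/mL, but the change of 0.22 ± 0.10 did not pass (adjusted p = 0.12), and the vehicle libraries covered the whole span. NOP10, the smallest core protein of the particle, was at 0.15 ± 0.059 without passing.

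Among the nucleolar scaffold proteins and chaperones, DDX21 and NOLC1 rose and NCL and NPM1 did not pass. DDX21, a nucleolar RNA helicase, had 400, 514 and 504 CPM in vehicle libraries, 490, 451 and 465 CPM at 20 µg/mL, 484, 500 and 473 CPM at 100 µg/mL and 615, 572 and 595 CPM at 500 µg/mL of Soshiho-tang. No other Soshiho-tang or vehicle library reached the lowest of the libraries at 500 µg/mL, and replicate 1 of the vehicle stood far below its fellows. The log2 fold change at 500 against 20 µg/mL was 0.34 ± 0.060 (adjusted p = 0.00016), which shared the top place of the set with RRP9. NOLC1, a chaperone of snoRNPs, had 327, 355 and 363 CPM in vehicle libraries, 347, 348 and 340 CPM at 20 µg/mL, 357, 357 and 354 CPM at 100 µg/mL and 425, 419 and 400 CPM at 500 µg/mL. Its 3 libraries at 500 µg/mL lay above all others of this formula and above vehicle. It rose by 0.26 ± 0.036 (adjusted p = 2.6e-06), the smallest adjusted p in the set. Nucleolin (NCL) was at 0.20 ± 0.096 and nucleophosmin (NPM1), a histone and ribosome chaperone, at 0.16 ± 0.069. NPM1 has 49 named pseudogene copies, whose counts came to 0.929% of its own.

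All 6 t-UTP genes rose. Their proteins join the nascent precursor first and are tied to its transcription. UTP4 had 111, 107 and 114 CPM in vehicle libraries, 108, 110 and 108 CPM at 20 µg/mL, 109, 116 and 112 CPM at 100 µg/mL and 128, 132 and 130 CPM at 500 µg/mL of Soshiho-tang. UTP15 had 28.7, 33.0 and 31.4 CPM in vehicle libraries, 33.4, 33.9 and 36 CPM at 20 µg/mL, 34.1, 35.3 and 33.2 CPM at 100 µg/mL and 40.2, 39.6 and 42.9 CPM at 500 µg/mL. In both genes all 3 libraries at 500 µg/mL lay above all the others of this formula and above vehicle, and for UTP15 the 20 µg/mL libraries were also above the 3 vehicle libraries. At 500 against 20 µg/mL UTP4 rose by 0.26 ± 0.037 (adjusted p = 4.4e-06) and UTP15 by 0.24 ± 0.056 (adjusted p = 0.0019). WDR43 rose by 0.25 ± 0.062, NOL11 by 0.16 ± 0.049, WDR75 by 0.15 ± 0.054 and HEATR1, a large repeat protein of the complex, by 0.14 ± 0.035.

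Of the other small-subunit assembly genes, 6 of 7 rose. RRP9, a protein specific to the U3 snoRNP, had 43.6, 49.6 and 50.7 CPM in vehicle libraries, 39.8, 37.2 and 36.8 CPM at 20 µg/mL, 39.3, 43.3 and 42.5 CPM at 100 µg/mL and 47.0, 48.6 and 48.5 CPM at 500 µg/mL of Soshiho-tang. The libraries at 20 µg/mL lay below all vehicle libraries and those at 500 µg/mL were back within the vehicle range, a difference between doses of 0.34 ± 0.058 (adjusted p = 6.5e-05). UTP20, a large scaffold protein of pre-ribosomes, behaved differently against vehicle: it had 81.0, 87.6 and 84.2 CPM in vehicle libraries, 101, 98.7 and 104 CPM at 20 µg/mL, 99.5, 107 and 104 CPM at 100 µg/mL and 114, 116 and 114 CPM at 500 µg/mL. Each treated library exceeded each vehicle library, and the high dose exceeded the low dose by 0.17 ± 0.040 (adjusted p = 0.0020). DDX10, an RNA helicase, rose by 0.24 ± 0.085, NOL6 by 0.21 ± 0.049, RRP12 by 0.17 ± 0.045 and NOP14 by 0.14 ± 0.043. NAT10, the cytidine acetyltransferase of ribosomal RNA, was at 0.07 ± 0.039 and did not pass.

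Of the large-subunit assembly genes, 8 of 9 rose. EBNA1BP2, a nucleolar assembly factor, had 66.8, 83.5 and 81.1 CPM in vehicle libraries, 68.4, 67.8 and 67.0 CPM at 20 µg/mL, 68.5, 72.3 and 70.7 CPM at 100 µg/mL and 86.5, 83.5 and 83.2 CPM at 500 µg/mL of Soshiho-tang. The libraries at 500 µg/mL were above all those at the lower doses, while the vehicle libraries split into 1 at the low-dose level and 2 near the high-dose level. The change from low to high dose was 0.31 ± 0.055 (adjusted p = 8.4e-05). RRS1, which helps to bring the small ribosomal RNA of the large subunit into the pre-ribosome, had 54.6, 63.5 and 67.7 CPM in vehicle libraries, 51.3, 49.1 and 49.1 CPM at 20 µg/mL, 51.0, 51.1 and 52.6 CPM at 100 µg/mL and 58.1, 59.9 and 55.5 CPM at 500 µg/mL. All libraries at the lower doses lay below all vehicle libraries, and the high dose was above the low dose by 0.21 ± 0.056 (adjusted p = 0.0059). NOP16 rose by 0.29 ± 0.047, NIP7 by 0.23 ± 0.051 and NOP2, an RNA cytosine methyltransferase, by 0.18 ± 0.043. The 3 members of the PeBoW complex, which is needed for cutting the large-subunit precursor, rose by close amounts: WDR12 by 0.17 ± 0.043, BOP1 by 0.17 ± 0.054 and PES1 by 0.16 ± 0.046. GNL3, a nucleolar GTPase, was at 0.17 ± 0.063 and did not pass.

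RNA polymerase I and its factors were mixed: 4 of 7 rose. POLR1E, an associated subunit that aids initiation, had 22.1, 26.3 and 22.9 CPM in vehicle libraries, 21.4, 22.0 and 21.8 CPM at 20 µg/mL, 21, 23.5 and 24.3 CPM at 100 µg/mL and 26.0, 27.8 and 26.0 CPM at 500 µg/mL of Soshiho-tang. Its libraries at 500 µg/mL exceeded those at the lower doses and overlapped with vehicle replicate 2, and the change from low to high dose was 0.29 ± 0.065 (adjusted p = 0.0013). TCOF1 (treacle, a nucleolar phosphoprotein that binds the polymerase) rose by 0.28 ± 0.046 and POLR1B, the second largest subunit, by 0.17 ± 0.042. RRN3, the factor that brings the polymerase to the promoter, rose by 0.19 ± 0.046, but the counts of 4 named pseudogene copies came to 26.2% of its own, so its share of reads is uncertain. The catalytic subunit POLR1A was at 0.10 ± 0.040 and POLR1C, a subunit shared with RNA polymerase III, at 0.14 ± 0.063, neither passing.

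UBTF, the architectural factor that binds along active ribosomal DNA, was the 1 gene of the set with a negative change at 500 against 20 µg/mL. It had 134, 135 and 149 CPM in vehicle libraries, 128, 128 and 119 CPM at 20 µg/mL, 128, 120 and 122 CPM at 100 µg/mL and 120, 114 and 114 CPM at 500 µg/mL of Soshiho-tang. All treated libraries of this formula were below all vehicle libraries. The difference between 500 and 20 µg/mL was -0.11 ± 0.045 and did not pass (adjusted p = 0.078; 0.049 without Soshiho-tang replicate 3 at 20 µg/mL and 0.035 with only these 2 groups in the fit, over a range of 0.026 to 0.24 in all settings tried), and that between 500 µg/mL and vehicle was -0.27 ± 0.045 (adjusted p = 2.0e-05).

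**Figure D3:**
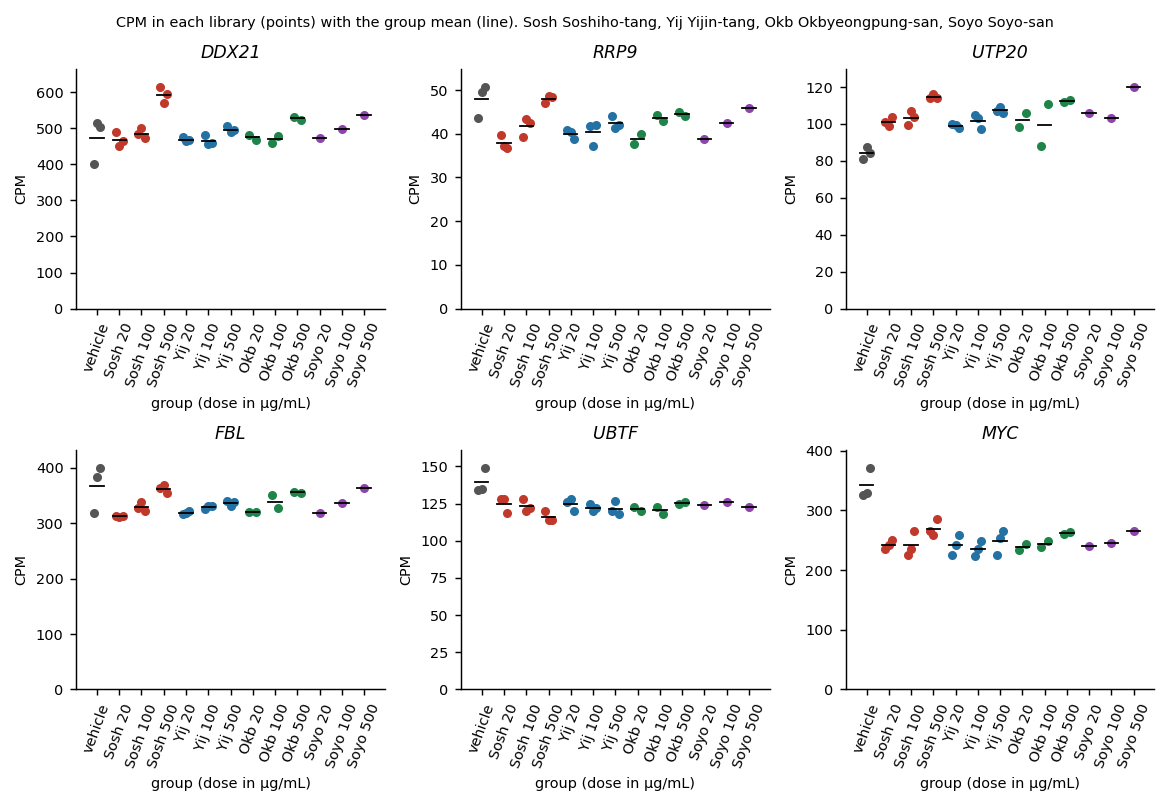
CPM in each library (points) and the group mean (line) for DDX21, RRP9, UTP20, FBL, UBTF and MYC, in vehicle and the 12 formula and dose groups (doses in µg/mL). DDX21 stands apart at 500 µg/mL of Soshiho-tang, RRP9 and FBL are low at 20 µg/mL, UTP20 is above and UBTF and MYC are below vehicle in every treated group.

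The promoters of 33 of the 40 genes were found in a RefSeq table for GRCh38.p14 and were searched on both strands for CACGTG, the palindromic E-box, in the window from 250 bases before to 50 bases after the annotated start. It occurred in 12 of the 33 promoters (36.4%), against 7.26% of 35116 promoters of the same length. That background is the whole promoter table, without removal of repeated symbols and without a limit to expressed or coding genes, so the sets compared are unlike. The sequence TCTCGCGA, or its reverse complement TCGCGAGA, occurred in 4 (12.1%), against 1.15% of all promoters, and GCGCATGC, or GCATGCGC, in 2 (6.06%), against 3.05%. A match is a description of these letters and not a bound site. The 120 bases around the E-box are shown for FBL, UTP4, RRP9 and UTP20. These are the first 4 genes with an E-box among those given in every library, in order of the role groups. In Soshiho-tang FBL and RRP9 were below vehicle at the low dose, UTP4 overlapped with it and UTP20 was above it. The stretches are written 5′ to 3′ on the strand of the gene, with the E-box in capitals.
FBL: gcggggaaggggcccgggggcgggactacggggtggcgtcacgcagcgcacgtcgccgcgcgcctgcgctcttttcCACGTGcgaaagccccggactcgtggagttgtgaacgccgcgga
UTP4: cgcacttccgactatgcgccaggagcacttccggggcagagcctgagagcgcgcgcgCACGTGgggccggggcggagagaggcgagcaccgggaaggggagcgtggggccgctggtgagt
RRP9: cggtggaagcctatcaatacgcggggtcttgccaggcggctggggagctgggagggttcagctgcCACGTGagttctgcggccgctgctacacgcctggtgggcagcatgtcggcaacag
UTP20: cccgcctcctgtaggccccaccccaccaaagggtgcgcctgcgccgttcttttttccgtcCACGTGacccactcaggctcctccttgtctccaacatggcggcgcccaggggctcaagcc
These windows lie on GRCh38.p14 at chr19:39846330-39846449 (minus strand) for FBL, chr16:69132576-69132695 (plus strand) for UTP4, chr3:51941855-51941974 (minus strand) for RRP9 and chr12:101280035-101280154 (plus strand) for UTP20. The first base of the E-box was 16 bases before the start of UTP4 (-16), at -5 in RRP9, at -10 in UTP20 and 6 bases past the start of FBL, so in all 4 it sat next to the annotated start. In EBNA1BP2, next in that order and not shown, it was at -237.

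Against vehicle, the genes of the set split in Soshiho-tang by dose. At 500 µg/mL 20 were higher and 1 was lower, with 19.3% of all genes higher and 19.9% lower, and the median was 0.13 beside -0.03 for all genes. All 6 t-UTP genes were higher, from 0.17 to 0.39, as were 5 of the 7 RNA polymerase I genes, and UBTF was the 1 gene lower. Of the 21 genes called, 15 passed in every planned setting. Those that did not were the t-UTP gene NOL11, the polymerase genes POLR1A, POLR1C and POLR1E, and NOP16 and NOP56. RRN3 has the pseudogene copies described above. UTP20 had the largest change, 0.44 ± 0.040 (adjusted p = 1.4e-09), followed by UTP15 at 0.39 ± 0.056 (adjusted p = 2.6e-06). FBL at -0.02 ± 0.050, RRP9 at 0.00 ± 0.056 and RRS1 at -0.10 ± 0.055 did not pass. Without vehicle replicate 1, whose 40-gene median was the lowest of the vehicle libraries, 15 genes were higher and 6 lower. The share of all genes called in that fit is not given here, so these counts cannot be set against it.

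At the 2 lower doses more genes were lower than higher. At 20 µg/mL 2 genes were higher, HEATR1 and UTP20, and 11 lower, with 9.36% of all genes higher and 7.48% lower, and the median was -0.06. At 100 µg/mL 3 were higher and 7 lower, with 9.80% and 8.52% of all genes, and the median was -0.03 beside -0.01 for all genes, running from -0.07 to 0.03 with 1 library left out. The 11 lower at 20 µg/mL were FBL, NHP2, NOP10, RRP9, PES1, RRS1, NOP2, NOP16, EBNA1BP2, TCOF1 and UBTF. At this dose RRP9 was at -0.34 ± 0.057, RRS1 at -0.31 ± 0.055 and FBL at -0.23 ± 0.050. With only the 2 groups compared in the fit, 3 genes passed at 20 µg/mL and 2 at 100 µg/mL, and the counts also moved with single libraries. Without vehicle replicate 1 the counts were 22 at 20 µg/mL (3 higher, 19 lower) and 20 at 100 µg/mL (5 higher, 15 lower), and without vehicle replicate 3 they were 8 at 20 µg/mL and 5 at 100 µg/mL. Without Soshiho-tang replicate 3 at 20 µg/mL 7 genes passed. The shares of all genes called in these other fits are not given here, so the counts cannot be set against them.

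In Yijin-tang more genes were lower than higher against vehicle at the 2 low doses, and about as many at the high dose. At 20 µg/mL 3 genes were higher and 9 lower, with 9.17% and 7.68% of all genes (median -0.08). At 100 µg/mL 3 were higher and 8 lower, with 9.71% and 8.68% of all genes (median -0.06). At 500 µg/mL 4 were higher and 5 lower, with 11.0% and 10.3% of all genes (median 0.01, and -0.04 to 0.05 with 1 library left out). With only the 2 groups compared in the fit, 3, 2 and 1 genes passed at 20, 100 and 500 µg/mL, and 1 of the 9 called at 500 µg/mL, UTP20, passed in every planned setting. The 4 higher were UTP15, HEATR1, UTP20 and RRN3, the last with the pseudogene copies described above, and the 5 lower were RRP9, PES1, RRS1, TCOF1 and UBTF. Without vehicle replicate 1 the calls were 24, 21 and 21 at 20, 100 and 500 µg/mL. Without vehicle replicate 3 they were 8 at 20 µg/mL and 6 at 100 µg/mL, without Yijin-tang replicate 2 at 100 µg/mL they were 7, and without Yijin-tang replicate 3 at 500 µg/mL they were 4. The shares of all genes called in these other fits are likewise not given here. The comparisons of both formulas with vehicle share the 3 vehicle libraries.

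UTP20 had 107, 109 and 106 CPM at 500 µg/mL of Yijin-tang, against 81.0, 87.6 and 84.2 CPM in vehicle libraries, with no overlap, a log2 fold change of 0.35 ± 0.040 (adjusted p = 1.1e-06). UTP15 had 35.6, 33.8 and 36.7 CPM, against 28.7, 33.0 and 31.4 CPM in vehicle libraries, also without overlap, at 0.19 ± 0.056 (adjusted p = 0.015). RRS1 had 51.9, 51.5 and 55.7 CPM, against 54.6, 63.5 and 67.7 CPM in vehicle libraries, at -0.22 ± 0.055 (adjusted p = 0.0043). The highest Yijin-tang library of RRS1 overlapped with vehicle replicate 1. UBTF had 120, 127 and 118 CPM, against 134, 135 and 149 CPM in vehicle libraries, with no overlap, at -0.20 ± 0.045 (adjusted p = 0.0018). GAR1 had 22.4, 21.9 and 25.0 CPM, against 21.9, 27.7 and 32.9 CPM in vehicle libraries, and FBL 340, 332 and 338 CPM, against 318, 383 and 400 CPM. GAR1 and FBL overlapped with vehicle and did not pass, at -0.24 ± 0.098 and -0.13 ± 0.050. NOLC1 had 376, 370 and 371 CPM, against 327, 355 and 363 CPM in vehicle libraries, which did not overlap, but its change of 0.09 ± 0.036 did not pass (adjusted p = 0.066).

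The difference between the high and the low dose of Yijin-tang was in the same direction but smaller. 38 of the 40 genes had a positive log2 fold change at 500 against 20 µg/mL, beside 48.1% of all genes, and the median was 0.08, against 0.00 for all genes. By edgeR's quasi-likelihood test 0 genes were higher and 0 lower at an adjusted p below 0.05, where 0.679% of all genes were higher and 1.24% lower. At unadjusted p below 0.05 there were 10 higher and 0 lower, and DESeq2 called 2 higher. With only these 2 groups in the fit 10 genes were higher, and with no vehicle libraries in it, a fit added after the data were seen, 7 were higher. Without a filter on low counts 1 was higher. Without Yijin-tang replicate 1 at 20 µg/mL 1 gene was called. For the counts at unadjusted p, by DESeq2 and in these other fits the share of all genes is not given here, so they cannot be set against it. The largest change was that of EBNA1BP2, at 0.17 ± 0.055, and the smallest that of GAR1, at -0.05 ± 0.10.

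Set directly against each other at 500 µg/mL, Soshiho-tang stood above Yijin-tang in 39 of the 40 genes, beside 48.8% of all genes, with a median difference of 0.12. 13 genes were higher in Soshiho-tang and 0 lower by edgeR (at unadjusted p below 0.05, 24 and 0; by DESeq2, 14 and 0), where 6.69% of all genes were higher and 6.37% lower. They were DKC1, NOLC1, DDX21, UTP4, UTP15, HEATR1, NOP14, WDR12, NOP16, EBNA1BP2, POLR1B, TCOF1 and RRN3, the last with the pseudogene copies described above. Of these 13, only NOLC1, DDX21 and NOP16 passed in every planned setting. DDX21 had 615, 572 and 595 CPM in Soshiho-tang libraries, against 506, 489 and 496 CPM in Yijin-tang libraries, without overlap, at 0.25 ± 0.060 (adjusted p = 0.0052). NOLC1 was at 0.15 ± 0.036 (adjusted p = 0.0042). Leaving out any 1 of the 6 libraries of the 2 groups brought the count to between 6 and 8, whereas it was 25 with only these 2 groups in the fit and 27 with no vehicle libraries in it, all higher in Soshiho-tang. The dose effects of the 2 formulas were also compared by an interaction term, added after the data were seen: the effect of Soshiho-tang exceeded that of Yijin-tang in 39 genes, by a median of 0.12, but 0 of the 40 genes passed, 12 being at unadjusted p below 0.05, while 4.69% of all genes passed. The smallest adjusted p values were those of RRP9, at 0.24 ± 0.082 (adjusted p = 0.091), DDX21, at 0.25 ± 0.085 (adjusted p = 0.097), and NOLC1, at 0.15 ± 0.051 (adjusted p = 0.098). For the counts at unadjusted p, by DESeq2 and in other fits the share of all genes is not given here, so they cannot be set against it.

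Okbyeongpung-san followed the same order of doses, with 2 libraries per dose. Its 40-gene median against the vehicle mean was -0.06, 0.00 and 0.06 at 20, 100 and 500 µg/mL in batch E, and -0.04, -0.01 and 0.09 in batch D. At 500 against 20 µg/mL 39 of the 40 genes were positive, beside 51.5% of all genes, with a median of 0.13. By edgeR 0 genes were higher and 0 lower, where 0.247% of all genes were higher and 0.311% lower, with 9 higher and 0 lower at unadjusted p below 0.05 and 0 by DESeq2. With only these 2 groups in the fit 18 genes were higher, and with all 30 libraries in 1 fit 2 were higher. With the replicate number as a block 0 were called. This number is the batch within the formula, but the fit also held the vehicle libraries, all of batch E. Against vehicle at 20 µg/mL 0 genes were higher and 0 lower by edgeR, with 0.140% of all genes higher and 0.133% lower (3 higher and 8 lower at unadjusted p below 0.05; 3 lower by DESeq2). At 100 µg/mL 0 were higher and 0 lower by edgeR, with 0.0444% of all genes higher and 0.0634% lower (3 higher and 2 lower at unadjusted p below 0.05; 1 lower by DESeq2). The 2 libraries at 100 µg/mL were less alike than those at the other doses of this formula, by the chi-square statistic given above (10.4). At 500 µg/mL 1 gene, UTP20, was higher and 0 were lower, with 2.19% of all genes higher and 2.19% lower (at unadjusted p below 0.05, 12 and 1; by DESeq2, 3 higher). UTP20 had 112 and 113 CPM at 500 µg/mL, against 81.0, 87.6 and 84.2 CPM in vehicle libraries, which was 0.42 ± 0.084 (adjusted p = 0.018). With all 30 libraries in 1 fit the counts against vehicle were 13, 3 and 13 at 20, 100 and 500 µg/mL, without a filter on low counts they were 5 at 20 µg/mL and 4 at 500 µg/mL, and with the replicate number as a block they were 6, 1 and 4. Without vehicle replicate 1 these counts became 11 at 20 µg/mL, all lower, 2 at 100 µg/mL and 4 at 500 µg/mL. At 500 µg/mL the count was 2 without vehicle replicate 2, and 0 without vehicle replicate 3 or either Okbyeongpung-san library, and at 20 µg/mL it was 1 without vehicle replicate 2. For the counts at unadjusted p, by DESeq2 and in all these other fits the share of all genes is not given here, so they cannot be set against it.

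Soyo-san had 1 library per dose, all in batch D, and its values have no replicate check. The 40-gene median against the vehicle mean was -0.05 at 20 µg/mL, 0.01 at 100 µg/mL and 0.09 at 500 µg/mL. The library at 500 µg/mL was above that at 20 µg/mL in 39 of the 40 genes, beside 50.4% of 16886 genes, with a median difference of 0.16 and a range from -0.01 (UBTF) to 0.28 (EBNA1BP2). EBNA1BP2 had 63.9, 71.2 and 77.7 CPM, DDX21 473, 499 and 536 CPM, and UTP20 106, 103 and 120 CPM at 20, 100 and 500 µg/mL. The dose comparisons of the 4 formulas share no library, whereas all comparisons with vehicle share 3.

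MYC, the transcription factor whose known targets include many of these genes, was lower than vehicle in every treated group. It had 325, 329 and 371 CPM in vehicle libraries, 235, 242 and 250 CPM at 20 µg/mL, 225, 235 and 266 CPM at 100 µg/mL and 265, 258 and 285 CPM at 500 µg/mL of Soshiho-tang. All treated libraries were below all vehicle libraries, at 500 µg/mL by -0.35 ± 0.070 (adjusted p = 0.00051), in Yijin-tang at 500 µg/mL by -0.47 ± 0.071 (adjusted p = 0.00014) and in Okbyeongpung-san at 500 µg/mL by -0.37 ± 0.069 (adjusted p = 0.012). Between 500 and 20 µg/mL of Soshiho-tang the difference of MYC was 0.14 ± 0.071 and did not pass (adjusted p = 0.15). Of 10 genes of the MYC network 1 was higher, MXD1 at 0.16, and 3 were lower there, beside 13% of all genes higher and 13.6% lower. MXD4 fell by 0.89 ± 0.058 (adjusted p = 2.4e-12), MXD3 by 0.30 ± 0.086 (adjusted p = 0.011) and MLXIP, a partner of MLX, by 0.29 ± 0.051 (adjusted p = 8.3e-05). Like MXD1, which was higher, MXD3 and MXD4 encode repressors that compete with MYC for MAX.

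The other genes of the pathway, taken from further lists, are set against the same shares of all genes at 500 against 20 µg/mL of Soshiho-tang, 13% higher and 13.6% lower. Of 40 other small-subunit assembly genes 23 were higher and 0 lower, with a median of 0.17. At unadjusted p below 0.05 there were 26 and 0, for which the share of all genes is not given here. TSR1, a GTPase-like factor of late assembly, rose by 0.26 ± 0.043 (adjusted p = 4.1e-05), EMG1, a pseudouridine methyltransferase, by 0.28 ± 0.052 and DCAF13 by 0.23 ± 0.043. Of 52 other large-subunit assembly genes 23 were higher and 1 lower, NOP53 at -0.22, with a median of 0.12. MRTO4, which holds the place of the stalk protein, rose by 0.27 ± 0.046, NOC2L by 0.20 ± 0.036 and SBDS, which helps release eIF6 from the new subunit, by 0.28 ± 0.057. Of 16 genes of the nuclear exosome and pre-rRNA nucleases 4 were higher and 0 lower (median 0.15), among them EXOSC8 at 0.27 ± 0.067, EXOSC2 at 0.17 ± 0.046 and the helicase MTREX at 0.17 ± 0.053.

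The polymerase and snoRNA host lists had counts of higher genes near that share of 13%. Most of their changes were positive all the same, beside 47.8% of all genes. The positive genes were 12 of 14 other RNA polymerase I, 20 of 22 RNA polymerase III and 10 of 12 snoRNA host genes. Of 14 other RNA polymerase I genes 2 were higher and 0 lower, with a median of 0.09. At unadjusted p below 0.05 there were 4 and 0, again without the share of all genes. POLR2H, a subunit shared by the 3 nuclear RNA polymerases, rose by 0.18 ± 0.043 and POLR1H, a small subunit, by 0.32 ± 0.11, while TAF1B, of the promoter selectivity factor, was at 0.14 ± 0.066 without passing. Of 22 genes of RNA polymerase III and its factors 3 were higher and 1 lower, with a median of 0.08: POLR3C rose by 0.24 ± 0.061 and POLR3F by 0.28 ± 0.072, and POLR3GL, an alternative to the subunit POLR3G, fell by 0.44 ± 0.14. Of 12 snoRNA host genes 2 were higher and 0 lower (median 0.07), SNHG17 at 0.19 ± 0.064 and SNHG1 at 0.16 ± 0.057, while SNHG15 was at 0.16 ± 0.066 without passing. Of 10 epithelial markers 4 were higher and 3 lower in the same comparison, beside 13% of all genes higher and 13.6% lower. Those with the smallest adjusted p were VIL1, which fell by 0.55 ± 0.043, KRT20, which rose by 0.55 ± 0.047, and CEACAM5, which rose by 0.70 ± 0.13. CEACAM5 was low, at 5.25 to 12.1 CPM over the 30 libraries. The part of these markers in the result was not tested.

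**Figure D4:**
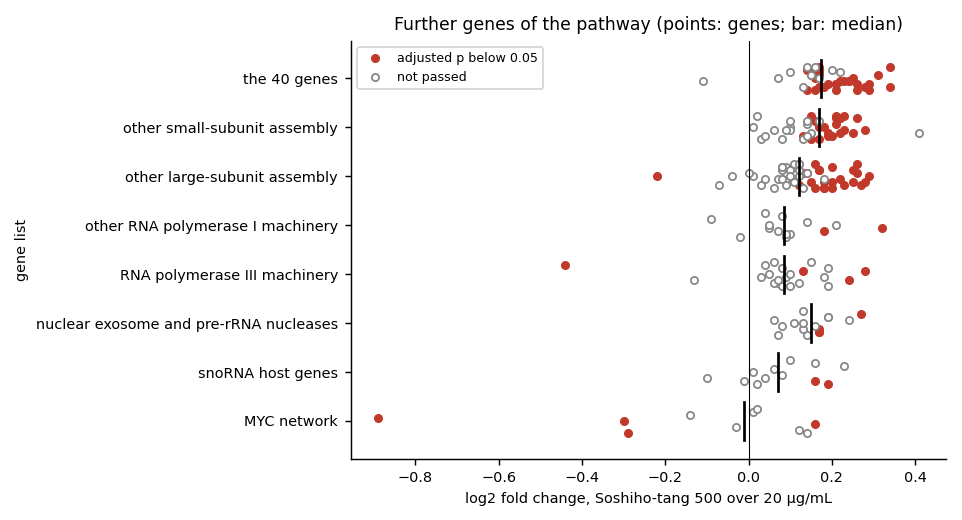
Log2 fold change at 500 over 20 µg/mL of Soshiho-tang for the 40 genes and for further lists of the pathway (each point 1 gene, filled where the adjusted p was below 0.05, bar at the median). The small-subunit, large-subunit and exosome lists lie mostly right of 0, like the 40 genes, with medians of 0.12 to 0.18, and the MYC network straddles 0, with MXD4 at -0.89.

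Within the set, the differences against vehicle varied with the base composition and length of the transcripts, and the difference between doses of Soshiho-tang varied little with them. Across the 40 genes, with the longest coding transcript of GENCODE release 29, the log2 fold change of Soshiho-tang at 20 µg/mL against vehicle had a Pearson correlation of -0.63 with G+C content and 0.55 with log2 length. Over 12582 protein-coding genes the same values were -0.35 and 0.23. By Spearman rank correlation the 40 genes lay closer to all genes, at -0.63 against -0.53 for G+C and 0.5 against 0.35 for length. For Yijin-tang at 20 µg/mL the Pearson values were -0.63 and 0.51 in the 40 genes, and for Soshiho-tang at 500 µg/mL against vehicle -0.60 and 0.42. For Soshiho-tang at 500 against 20 µg/mL they were -0.03 and -0.16. These points are genes measured in the same libraries, and the vehicle comparisons share the 3 vehicle libraries, so the values describe these libraries. The part of base composition and length in the vehicle results was not tested.

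**Figure D5:**
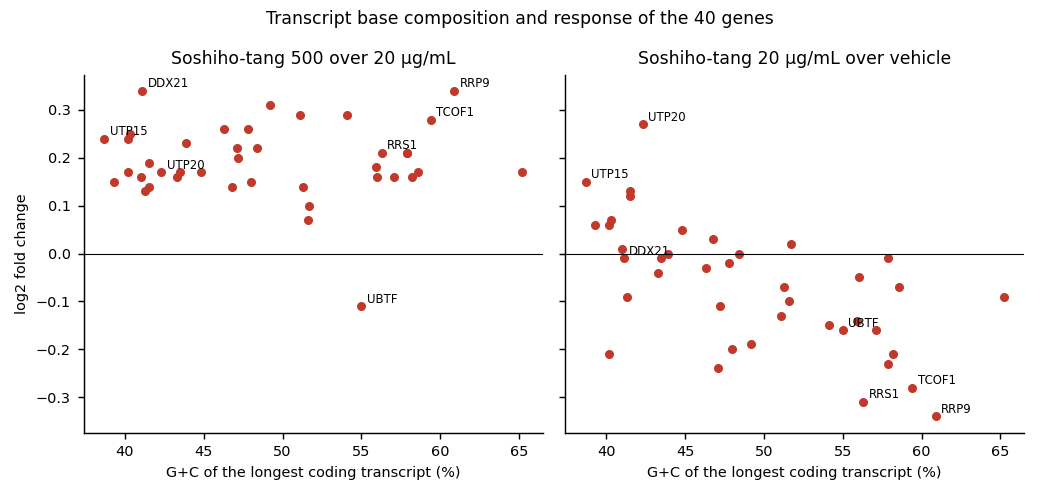
G+C content of the longest coding transcript (horizontal axis, %) against the log2 fold change of each of the 40 genes, at 500 over 20 µg/mL of Soshiho-tang (left) and at 20 µg/mL of Soshiho-tang over vehicle (right). The points slope down on the right, with a Pearson correlation of -0.63, from UTP20 to RRP9 and TCOF1, and show no slope on the left, with -0.03.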

How the data were processed

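The deposited values are expected counts per gene, which the authors estimated from paired 100 bp reads of directional libraries. The submitters' processing notes name the build GRCh38 and the tools RSEM 1.3.3, STAR 2.7.3a, Trim Galore 0.6.5 and FastQC 0.11.9. Which annotation release was used is not given in the sources used here. Expected counts divide reads between genes that share sequence, so genes with close copies are uncertain. Between 9.52% and 11.5% of a library's values were not whole, and values were rounded to whole numbers. A further 30 columns held no name and no value.

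Differences were tested with edgeR 4.0.16 (R 4.3.3): genes with low counts were filtered, libraries scaled by TMM, quasi-likelihood tests run, and p-values adjusted by Benjamini-Hochberg over all genes, with a call at an adjusted p below 0.05. The vehicle, Yijin-tang and Soshiho-tang groups (21 libraries, 15895 genes) were fitted together, and vehicle with Okbyeongpung-san (9 libraries, 15764 genes) apart. All 40 genes were tested in both. Replicate numbers pair the doses of Okbyeongpung-san by batch, per the labels. The same-number correlation of deviations from the group mean was 0.01 within it at 500 against 20 µg/mL. With 2 libraries per dose this is 1 value, since the 2 deviations of a dose mirror each other. In the other groups they match a field of the library names whose meaning is not stated. The main fits used no pairing. The biological coefficient of variation was 4.7% and 7%. Standard errors are the log2 fold change divided by the square root of its F statistic. CPM used TMM factors over all 30 libraries. DESeq2 1.42.0, other scaling, no filter, a replicate block, other libraries in the fit and each library left out in turn were tried. The steps were tested on simulated data.

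The members and the further lists were chosen with earlier results of these data known. All 40 members could be named. Values per library are given for the member with the largest change in each role group, at 500 against 20 µg/mL of Soshiho-tang and at 500 µg/mL of Yijin-tang against vehicle, and for MYC. The 3 genes with the smallest adjusted p are named in each further list, and other names (NOP53, among them) were chosen after their values were seen. Promoters were shown for at most 4 of the genes holding an E-box, taking first those given in every library, in order of the role groups.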

Additional observations from a re-analysis of the deposited data

How the results depend on the processing

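Of the genes called, 22 of 30 passed in every planned setting at 500 against 20 µg/mL of Soshiho-tang, 15 of 21 at 500 µg/mL of Soshiho-tang against vehicle, 3 of 13 between Soshiho-tang and Yijin-tang, and 1 of 9 at 500 µg/mL of Yijin-tang against vehicle, and in these 4 comparisons no called gene changed its sign. With only the 2 groups compared in the fit, the counts were 3 and 2 for Soshiho-tang at 20 and 100 µg/mL against vehicle, 3, 2 and 1 for Yijin-tang at 20, 100 and 500 µg/mL against vehicle, 10 at 500 against 20 µg/mL of Yijin-tang, 18 in that comparison of Okbyeongpung-san and 25 between Soshiho-tang and Yijin-tang. Without a filter on low counts they were 1 at 500 against 20 µg/mL of Yijin-tang and, for Okbyeongpung-san against vehicle, 5 at 20 µg/mL and 4 at 500 µg/mL. DESeq2 gave 2 at 500 against 20 µg/mL of Yijin-tang and 3, 1 and 3 for Okbyeongpung-san at 20, 100 and 500 µg/mL against vehicle. With all 30 libraries in 1 fit, those 3 were 13, 3 and 13, and 500 against 20 µg/mL gave 2. A fit with no vehicle libraries, added after the data were seen, called 7 genes at 500 against 20 µg/mL of Yijin-tang, 27 between Soshiho-tang and Yijin-tang, and 38 at 500 against 20 µg/mL of Soshiho-tang (37 higher and 1, UBTF, lower). The causes were not tested. For the settings of this section the share of all genes called is not given, so the counts cannot be set against it.

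Deviations of same-numbered replicates were weakly correlated at most (between -0.08 and 0.09). At 500 against 20 µg/mL of Yijin-tang these correlations were 0.08, 0.09 and 0.05, each above the best other-numbered one (-0.03, -0.01 and 0.01). That order also held at 500 against 20 µg/mL of Okbyeongpung-san (0.01 against -0.01), and for every replicate in no other comparison. In Soshiho-tang, Yijin-tang and vehicle the replicate number is also the middle field of the library name. What that field stands for is not stated, so a pairing by it is possible. Within Okbyeongpung-san the number is also the batch, so a pairing by batch holds between its doses but not with vehicle, which is all in batch E. The block called 0 genes at 500 against 20 µg/mL of this formula. It was the replicate number in a fit that included vehicle, so batch itself was not blocked. The replicate block gave 6, 1 and 4 calls for Okbyeongpung-san at 20, 100 and 500 µg/mL against vehicle, and 30 at 500 against 20 µg/mL of Soshiho-tang.

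With 1 library left out, the counts ran from 25 to 28 at 500 against 20 µg/mL of Soshiho-tang, and against vehicle from 7 to 22, 5 to 20 and 17 to 24 at 20, 100 and 500 µg/mL. At the same doses against vehicle they ran in Yijin-tang from 8 to 24, 6 to 21 and 4 to 21 and from 0 to 1 at 500 against 20 µg/mL, and in Okbyeongpung-san from 0 to 11, 0 to 2 and 0 to 4 and 0 to 0 at 500 against 20 µg/mL. Between Soshiho-tang and Yijin-tang they ran from 6 to 8. Genes that had not passed changed sign. In Soshiho-tang at 500 µg/mL against vehicle, values ran from -0.13 to 0.19 for NOP58, -0.07 to 0.22 for NCL, -0.01 to 0.20 for NPM1, -0.12 to 0.13 for DDX10, -0.12 to 0.04 for FBL, -0.14 to 0.05 for NOP10 and -0.17 to 0.13 for GAR1. In Yijin-tang at 500 µg/mL against vehicle they ran from -0.21 to 0.12 for NOP58, -0.04 to 0.13 for DDX21, -0.02 to 0.12 for NOL11, -0.04 to 0.14 for GNL3, -0.15 to 0.01 for EBNA1BP2 and -0.01 to 0.06 for BOP1. Between the formulas BOP1 ran from -0.02 to 0.10.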
